A study of Mus musculus with 9 samples.

Results

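Phospholipases A2 cut the fatty acid from the middle position of membrane and dietary phospholipids and leave a lysophospholipid. The 10 genes of this family followed here in mouse gut organoids were chosen by symbol, with earlier results of these data known. Secreted enzymes among them are those of group II (Pla2g2a, Pla2g2d, Pla2g2e and Pla2g2f), group V (Pla2g5) and group X (Pla2g10). Also of the secreted type are those of group I (Pla2g1b) and group XII (Pla2g12a and the related Pla2g12b). The cytosolic enzyme is Pla2g4a. All 10 symbols have a row among the 23955 rows of the count table. RNA-seq was performed on organoids, which are epithelial cultures grown from gut tissue, of APCmin/+ mice, which carry 1 mutated copy of the tumor suppressor gene Apc. The 3 groups of 3 libraries came from normal-appearing epithelium next to the tumors (MIN), from adenomatous polyps (adenoma) and from polyps whose organoids were treated with the NSAID sulindac. All 9 libraries thus share the Apc mutation and the culture medium (Noggin, EGF, bFGF, R-spondin1 and B27). The dose and duration of sulindac in the organoids, its vehicle and the strain of the mice are not given in the sources used here.

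Secreted phospholipases A2 act outside the cell, on bacterial membranes, dietary lipids and cell surfaces, and differ in the phospholipids and tissues they serve. Pla2g2a is a product of the Paneth cells at the base of intestinal crypts, kills Gram-positive bacteria and is a candidate for Mom1, a locus that modifies the number of polyps in Min mice. Pla2g4a releases arachidonic acid inside the cell, which the cyclooxygenases, the targets of NSAIDs such as sulindac, turn into prostaglandins.

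The libraries held 30881206 to 48412477 counts, at which 3 counts of a gene equal 0.0641 to 0.10 CPM (counts per 1000000 counts of the TMM-normalized library). This is taken as the floor of what the depth shows, and covers counting error only. Markers of the labelled tissue were present: 7 epithelial genes (Epcam and Cdh1 among them) summed to 3026 to 6681 CPM in every library, while the 8 leukocyte genes summed to at most 16.7 CPM and the 7 mesenchymal genes to at most 4.22 CPM. Of the epithelial genes 5 were lower in adenoma than MIN, and the intestinal factor Cdx1 was at 91.0 to 113.9 CPM in MIN but had only 2 to 5 counts in each adenoma and treated library. Markers of mature cell types differed between the groups. The 6 goblet markers summed to 1829 to 2052 CPM in the MIN libraries, 126 to 231 CPM in the adenoma libraries and 58.5 to 120.5 CPM after sulindac. The 6 enteroendocrine markers summed to 306 to 566 CPM in the MIN libraries and to at most 2.35 CPM elsewhere. The 5 stem cell markers summed to 1273 to 2491, 981 to 1456 and 715 to 976 CPM and did not move together: in adenoma, compared with MIN, Axin2 (log2 fold change 1.63) and Ascl2 (1.37) rose, while Olfm4 (-13.24) and Lgr5 (-1.10) fell. In such bulk samples, fewer cells of a type and less RNA per cell cannot be told apart.

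In adenoma, compared with MIN, 4 phospholipase A2 genes rose and 3 fell, where 18.5% of all genes tested rose and 20.1% fell. After sulindac, compared with adenoma, Pla2g2a and Pla2g2f fell and Pla2g4a rose. Pla2g2f was at 16.6 ± 0.613 CPM in the MIN libraries, rose to 329.3 ± 51.3 CPM in those of adenoma and stood at 71.4 ± 21.1 CPM after sulindac (mean ± SD, n = 3 in each group). Pla2g2a rose 2.99-fold in adenoma and then fell to 1.77 ± 0.749 CPM. Pla2g4a took the opposite course, falling from 32.5 ± 9.60 CPM (MIN) to 5.12 ± 2.68 CPM (adenoma) and rising to 55.7 ± 6.22 CPM after sulindac. Pla2g12b and Pla2g10 were highest in MIN.

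**Figure D1:**
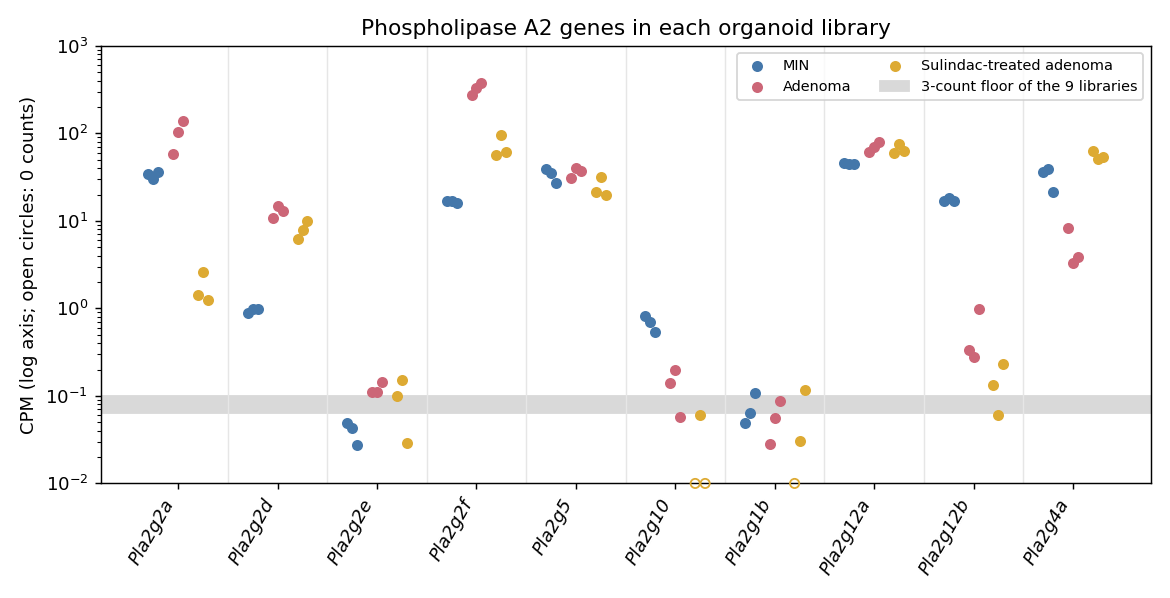
Level of each phospholipase A2 gene in each library, in CPM on a log axis; filled points are libraries colored by group, open circles on the lower edge are libraries with 0 counts, and the grey band is the 3-count floor of 0.0641 to 0.10 CPM. Pla2g2f reaches 379.1 CPM in an adenoma library, while Pla2g2e and Pla2g1b lie near the floor in all groups.

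Each comparison was made with edgeR's quasi-likelihood test across all genes with enough counts, with Benjamini-Hochberg adjustment and an FDR of 1%. Of the 10 genes, 8 passed the low-count filter for adenoma over MIN; 4 were higher, 3 were lower and Pla2g5 was not called. Their median log2 fold change was 0.37, against -0.01 for all genes tested. After sulindac, compared with adenoma, 7 could be tested; 1 was higher (8.32% of all genes were) and 2 were lower (9.10% of all genes were), with a median log2 fold change of -0.68 against -0.01. Compared with MIN, the sulindac-treated libraries had 3 of 8 genes higher (23.0% of all genes) and 3 lower (26.8% of all genes), with a median of 0.03 against -0.03. The genes that pass the low-count filter are those abundant in at least one group, so these counts describe the genes tested and not the whole family. The 3 comparisons share libraries and are therefore not independent of each other.

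**Figure D2:**
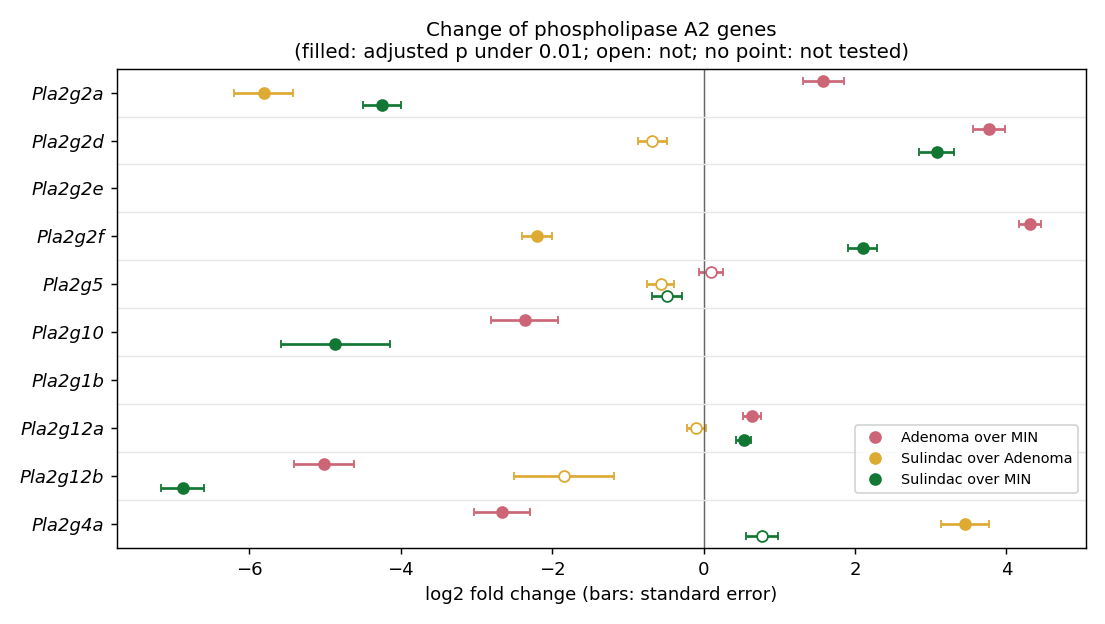
Log2 fold change of each gene tested, with its standard error, in the 3 comparisons; filled points passed an adjusted p of 0.01 in edgeR's quasi-likelihood test and open points did not. Pla2g2f lies at 4.31 in adenoma over MIN and at -2.20 in sulindac over adenoma, and Pla2g4a at -2.66 and 3.45.

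The group II genes and Pla2g5 are neighbors on mouse chromosome 4. In GENCODE M21 the order is Pla2g2c, Pla2g2f, Pla2g2d, Pla2g5, Pla2g2a and Pla2g2e, with Pla2g2f and Pla2g5 on the minus strand and the others on the plus strand. Except for Pla2g2d, with 1.64%, no 50-base stretch of any of the 10 genes occurs in transcripts of another gene. Pla2g2a and Pla2g5 overlap on opposite strands, as do Pla2g10 and its antisense gene Pla2g10os, but their annotated exons share 0 bases. GENCODE M21 labels Pla2g2a a polymorphic pseudogene, since the reference strain C57BL/6J carries a disrupted copy. The counts therefore give transcript levels of Pla2g2a and do not tell whether the enzyme is made.

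The promoters of Pla2g2f and Pla2g2d, the group II genes with the largest rise in adenoma, and of Pla2g4a, which moved the other way, are shown to give the sequence in front of the genes the comparisons turn on. Each run holds the 250 bases before a RefSeq transcription start of the GRCm38.p6 assembly, 5′ to 3′ on the strand of the gene. They lie at chr4:138757599-138757848 (minus strand) for Pla2g2f, chr4:138775485-138775734 (plus strand) for Pla2g2d, and chr1:149961291-149961540 and chr1:149922440-149922689 (both minus strand) for 2 starts of Pla2g4a. Capitals mark a match to a searched motif.
Pla2g2f: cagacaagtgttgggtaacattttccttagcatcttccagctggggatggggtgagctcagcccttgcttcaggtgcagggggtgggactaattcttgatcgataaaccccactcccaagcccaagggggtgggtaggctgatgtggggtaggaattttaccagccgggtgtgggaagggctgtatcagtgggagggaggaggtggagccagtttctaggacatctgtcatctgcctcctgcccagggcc
Pla2g2d: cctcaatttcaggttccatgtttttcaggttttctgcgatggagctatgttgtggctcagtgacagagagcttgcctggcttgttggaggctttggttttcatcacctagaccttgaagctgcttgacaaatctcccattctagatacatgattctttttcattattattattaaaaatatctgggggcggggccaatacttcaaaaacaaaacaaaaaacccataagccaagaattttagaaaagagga
Pla2g4a first start: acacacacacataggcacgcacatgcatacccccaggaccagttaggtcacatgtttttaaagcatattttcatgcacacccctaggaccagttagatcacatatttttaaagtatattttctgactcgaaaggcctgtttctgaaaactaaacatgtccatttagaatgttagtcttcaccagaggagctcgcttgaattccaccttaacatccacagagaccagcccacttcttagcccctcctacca
Pla2g4a second start: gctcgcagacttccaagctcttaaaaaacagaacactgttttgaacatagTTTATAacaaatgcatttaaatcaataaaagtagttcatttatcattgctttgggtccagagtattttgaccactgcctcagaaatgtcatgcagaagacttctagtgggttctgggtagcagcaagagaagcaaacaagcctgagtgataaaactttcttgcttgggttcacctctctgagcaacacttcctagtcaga
The letters searched, on both strands, were of 3 motifs. The core bound by TCF/LEF factors of the Wnt pathway, CTTTGA, occurs in 13.8% of the 32851 RefSeq promoters of this length. The TATA box, TATAAA, occurs in 12.4% of them. The STAT motif, TTCNNNGAA, occurs in 7.02% of them. None of them is in the printed windows of Pla2g2f, Pla2g2d and the first start of Pla2g4a. The second Pla2g4a window holds 1 TATAAA on the opposite strand, 200 bases before the start. Of the 9 genes with a promoter in the table, Pla2g1b was the only other one with a match, a CTTTGA on the opposite strand 145 bases before its start. A match describes letters and not a bound site, and no match says only that these letters are not in the window. Pla2g2a has no entry.

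Pla2g2f, a secreted enzyme known chiefly from the epidermis, was the most abundant group II gene of the adenoma by length. Its levels were 17.1, 16.7 and 15.9 CPM in the MIN libraries and 276.6, 332.4 and 379.1 CPM in the adenoma libraries. The sulindac-treated libraries had 56.6, 95.6 and 62.0 CPM. All 3 groups were separate: every adenoma library lay above every treated one, and every treated one above every MIN library. The log2 fold change was 4.31 ± 0.15 (SE) in adenoma over MIN (adjusted p = 1.39e-07), -2.20 ± 0.20 in sulindac over adenoma (adjusted p = 0.000252) and 2.10 ± 0.19 in sulindac over MIN (adjusted p = 2.84e-05).

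Pla2g2a had 34.8, 30.0 and 36.2 CPM in MIN. The adenoma libraries had 58.7, 103.2 and 139.4 CPM. Their SD was the largest of the groups in CPM (40.4), but so was their mean (100.5). After sulindac 1.43, 2.63 and 1.25 CPM remained, from 43 to 86 counts per library. The groups did not overlap, and the treated libraries were the lowest. The log2 fold change was 1.58 ± 0.27 in adenoma over MIN (adjusted p = 0.00129), -5.81 ± 0.39 in sulindac over adenoma (adjusted p = 8.72e-05) and -4.25 ± 0.25 in sulindac over MIN (adjusted p = 2.04e-06).

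Paneth markers moved against Pla2g2a from MIN to adenoma, and with it after sulindac. Their sum was 15930 to 19015 CPM in the MIN libraries, 909 to 1299 CPM in the adenoma libraries and 188 to 282 CPM after sulindac, and none of the 8 was at 0 in all libraries of a group. Of the 8 markers, 7 were lower in adenoma than MIN, with log2 fold changes such as -6.82 for lysozyme Lyz1 and -7.99 for the defensin Defa24. The exception was the protease Mmp7, which rose by 1.91. After sulindac, 5 of the 7 Paneth markers tested fell compared with adenoma, with a log2 fold change of -2.16 for Mmp7 and of -2.76 for the lectin Itln1. The part of Paneth cells in the Pla2g2a values was not tested.

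**Figure D3:**
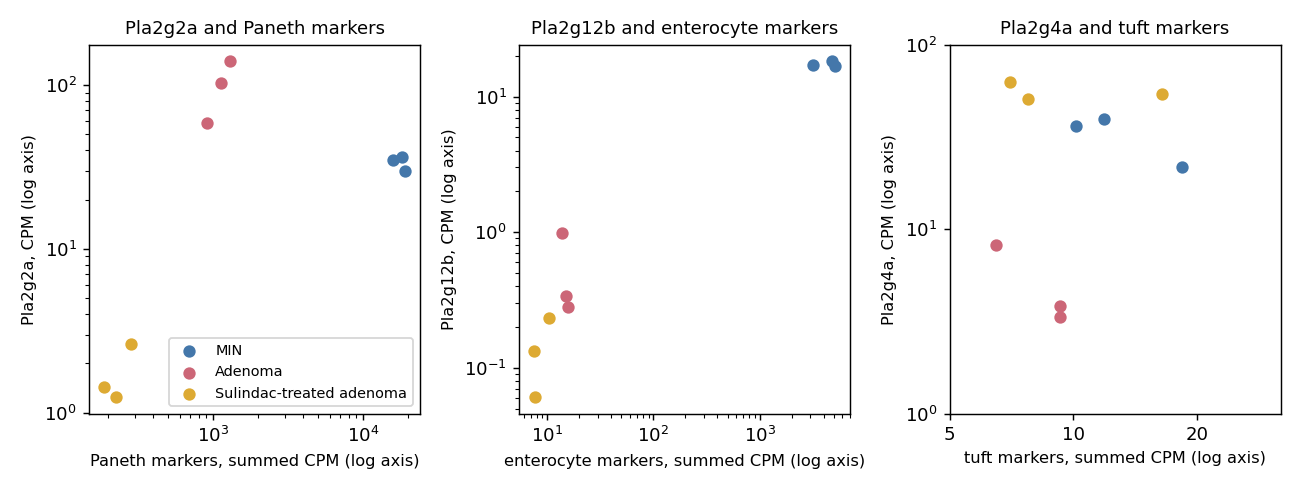
Level of Pla2g2a, Pla2g12b and Pla2g4a against the summed level of Paneth, enterocyte and tuft cell markers in each library (CPM, log axes), colored by group. Pla2g2a is highest in the adenoma libraries, whose Paneth markers lie at 909 to 1299 CPM, below the 15930 to 19015 CPM of MIN.

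Pla2g2d, a group II enzyme known mostly from dendritic cells and lymphoid tissue, was low in MIN, with 0.876, 0.983 and 0.980 CPM from 36 to 46 counts. It was at 10.9, 14.8 and 13.0 CPM in adenoma. After sulindac it was at 6.23, 7.98 and 9.86 CPM. Every MIN library was below all others, and the treated libraries lay below the adenoma libraries without overlap. Against MIN the log2 fold change was 3.77 ± 0.21 in adenoma (adjusted p = 1.7e-06) and 3.08 ± 0.24 after sulindac (adjusted p = 8.64e-06). The difference between sulindac and adenoma, -0.68 ± 0.20, did not pass the threshold (adjusted p = 0.0289), although it did in the Wald test of DESeq2 (adjusted p = 0.00881). Leukocytes are a known source of this gene. Of the 8 leukocyte genes 2 were at 0 throughout MIN, 2 throughout adenoma and 3 throughout the treated libraries, and their summed level was 4.51 to 6.34 CPM for MIN, 8.33 to 16.7 CPM for adenoma and 3.12 to 4.63 CPM for the treated libraries. Of these 8 genes, 2 passed the low-count filter in adenoma over MIN, Cd68 and Itgam, and they went opposite ways: the lysosomal gene Cd68 rose from 1.67 to 11.5 CPM and the integrin gene Itgam fell from 3.74 to 0.225 CPM. The pan-leukocyte gene Ptprc had at most 8 counts in any library. The part of leukocytes in the Pla2g2d values was not tested.

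Pla2g2e had 1 to 5 counts in any library, in sum 5 in MIN, 13 in adenoma and 9 after sulindac, and was below the low-count filter in each comparison. Scaled for depth, the MIN sum was 0.327 of the adenoma sum (95% exact interval of the counts 0.0913 to 0.978), and the adenoma sum 1.32 times that after sulindac (0.523 to 3.51). These intervals cover counting error and not the spread between libraries. Fitted without the filter, the log2 fold change was 1.54 ± 0.71 in adenoma over MIN (adjusted p = 0.105), -0.36 ± 0.71 in sulindac over adenoma (adjusted p = 0.755) and 1.14 ± 0.87 in sulindac over MIN (adjusted p = 0.305), so a difference was not detectable at this depth. The group II gene Pla2g2c, which lies next to Pla2g2f and was not one of the 10, had 1 to 5 counts in MIN and 11 to 15 counts in adenoma, a rise of 2.42 ± 0.55 on the log2 scale (adjusted p = 0.0058) that was not called without any 1 library other than MIN replicate 1 (adjusted p = 0.0143 to 0.025).

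Pla2g5, which lies between Pla2g2d and Pla2g2a, was not called in any comparison. It had 38.7, 35.0 and 27.3 CPM in MIN and 30.7, 40.0 and 37.4 CPM in adenoma. After sulindac it had 21.5, 31.5 and 19.7 CPM. The ranges of neighboring groups overlapped in each comparison. Its log2 fold changes were 0.10 ± 0.16 in adenoma over MIN (adjusted p = 0.628), -0.57 ± 0.18 in sulindac over adenoma (adjusted p = 0.0402) and -0.48 ± 0.20 in sulindac over MIN (adjusted p = 0.0605).

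Pla2g10, the group X enzyme with high activity on phosphatidylcholine, was lowly expressed and highest in MIN, with 34, 33 and 20 counts. Adenoma libraries had 5, 7 and 2 counts and the treated ones 0, 2 and 0. No adenoma or treated library reached the lowest MIN library. It fell by 2.37 on the log2 scale in adenoma (SE 0.45, adjusted p = 0.00209). In sulindac over MIN the adjusted p was 0.000414. With only 2 counts in the treated libraries, the MIN level was 33.9 times that after sulindac, with a 95% exact counting interval of 9.10 to 284.2. Against adenoma it was below the low-count filter. The summed adenoma level was 6.41 times that after sulindac (1.47 to 58.1), and the fit without the filter gave -2.45 ± 1.05 on the log2 scale (adjusted p = 0.112).

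Pla2g1b, the phospholipase of pancreatic juice, had 0 to 4 counts in every library, below the low-count filter. Fitted without it, log2 fold changes were -0.34 ± 0.79 in adenoma over MIN, -0.11 ± 1.03 in sulindac over adenoma and -0.49 ± 0.97 in sulindac over MIN (adjusted p = 0.753, 0.956 and 0.692), and a difference was not detectable at this depth. The 8 pancreatic acinar genes were mostly at 0 as well, with 5 of them at 0 throughout MIN, 5 throughout adenoma and 7 throughout the treated libraries. The elastase Cela1, which is also made in tissues other than the pancreas, was at 32.3 to 51.2 CPM in adenoma. No other of the 8 exceeded 0.961 CPM in any library.

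The 2 group XII genes differed. Pla2g12a, a broadly expressed member, had 45.9, 45.2 and 45.0 CPM in MIN. It had 61.9, 69.3 and 80.6 CPM in adenoma and 59.7, 75.4 and 62.2 CPM after sulindac. All libraries of both polyp groups were above all MIN libraries, while those of the polyp groups overlapped. The log2 fold change was 0.64 ± 0.12 in adenoma over MIN (adjusted p = 0.00187) and 0.53 ± 0.10 in sulindac over MIN (adjusted p = 0.00145), and -0.10 ± 0.12 between sulindac and adenoma (adjusted p = 0.593). Without MIN replicate 2 the adjusted p of its rise in adenoma was 0.0109.

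Pla2g12b, a relative without catalytic activity that is known for a role in the secretion of lipoproteins, had 16.9, 18.2 and 17.0 CPM in MIN. Adenoma libraries had 0.337, 0.279 and 0.983 CPM, from 10 to 34 counts. The treated ones had 0.133, 0.0611 and 0.233 CPM, from 2 to 8 counts. MIN lay far above the others, and the lowest adenoma library was above the highest treated one. The gene fell by 5.02 on the log2 scale in adenoma (SE 0.40, adjusted p = 1.27e-05; -5.80 without Adenoma replicate 3, the highest of its group) and by 6.88 in sulindac over MIN (SE 0.29, adjusted p = 2.51e-07). Between sulindac and adenoma the log2 fold change was -1.84 ± 0.66 (adjusted p = 0.0592), and -1.08 without Adenoma replicate 3. Enterocytes, which secrete lipoproteins, express the gene. Summed enterocyte markers were 3161 to 5129 CPM in the MIN libraries, 13.7 to 15.7 CPM in the adenoma libraries and 7.60 to 10.5 CPM after sulindac. All 7 were lower in adenoma than MIN, the sucrase-isomaltase gene Sis with a log2 fold change of -9.29 and the apolipoprotein Apoa4 with -12.11. The part of enterocytes in the Pla2g12b values was not tested.

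Pla2g4a, the cytosolic enzyme, was the only one of the 10 that rose after sulindac. It had 36.4, 39.6 and 21.6 CPM in MIN, where replicate 3 was the lowest. It had 8.20, 3.32 and 3.85 CPM in adenoma. After sulindac it had 62.7, 50.7 and 53.9 CPM. The adenoma libraries were below all others, and the treated ones above all MIN libraries. It fell by 2.66 on the log2 scale in adenoma (SE 0.37, adjusted p = 0.000361) and rose by 3.45 after sulindac (SE 0.32, adjusted p = 0.000255). The difference between treated and MIN libraries, 0.77 ± 0.21, did not pass the threshold (adjusted p = 0.0135), although the adjusted p was 0.00905 with the replicate block and 0.000908 in DESeq2. It was 0.00952 without MIN replicate 2 and 0.00175 without MIN replicate 3. Tuft cells, which are rich in enzymes of eicosanoid synthesis, were sparse by their markers: the 7 genes summed to 10.2 to 18.5 CPM for MIN, 6.49 to 9.30 CPM for adenoma and 7.00 to 16.5 CPM for the treated libraries, and the taste G protein Gnat3 was at 0 in every library. Of the 7, 2 were at 0 throughout MIN, 1 throughout adenoma and 3 throughout the treated libraries. Most of the sum outside MIN came from Avil, whose means were 2.80 (MIN), 6.25 (adenoma) and 9.71 CPM (sulindac). The defining genes Dclk1 (3.12, 0.150 and 0.0213 CPM), Trpm5 (3.38, 1.44 and 0.459 CPM) and Pou2f3 (3.41, 0.462 and 0.219 CPM) had their highest mean in MIN and their lowest after sulindac. Against adenoma, Trpm5 and Pou2f3 were not called after sulindac, and Dclk1 was below the low-count filter and not tested. The part of tuft cells in the Pla2g4a values was not tested.

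Levels of different genes can be compared only per length, here as CPM per kb of GENCODE M21 exons, which may differ from the exons counted. In MIN the order was led by Pla2g2a with 36.3 ± 3.53 CPM per kb, followed by Pla2g12b with 14.7 ± 0.599. Pla2g12a (12.3 ± 0.119) and Pla2g5 (11.7 ± 2.03) came next, and their ranges overlapped. Adenoma was led by Pla2g2f with 133.6 ± 20.8 CPM per kb and Pla2g2a with 108.3 ± 43.6, whose ranges overlapped, and then by Pla2g12a with 19.2 ± 2.57. After sulindac Pla2g2f led with 29.0 ± 8.57 CPM per kb, followed by Pla2g12a with 17.9 ± 2.28. Pla2g4a (8.72 ± 0.973) and Pla2g5 (8.40 ± 2.21) followed with overlapping ranges, and Pla2g2a was in place 6 with 1.91 ± 0.807.

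The 9 secreted-type genes, Pla2g12b included, summed to 79.9 to 85.7 CPM per kb in MIN, 208.3 to 345.8 in adenoma and 51.2 to 76.9 after sulindac. Adenoma lay above the other groups, and the treated libraries lay below MIN without overlap. The separation from MIN rests on Pla2g12b, which lacks catalytic activity. Its share of the sum was 16.7% to 19.2% in MIN and 0.0673% to 0.358% after sulindac. If Pla2g12b is left out, Sulindac replicate 2 lies above every MIN library. Pla2g2a made up 40.4% to 47.3% of the sum of all 9 genes in MIN and 30.4% to 43.4% in adenoma, but 2.45% to 3.69% after sulindac. Pla2g2f made up 7.82% to 8.49% in MIN and 44.5% to 53.8% in adenoma. After sulindac its share was 44.9% to 50.5%, within its range in adenoma, while that of Pla2g12a was 26.6% to 31.7%, compared with 6.33% to 8.07% in adenoma.

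**Figure D4:**
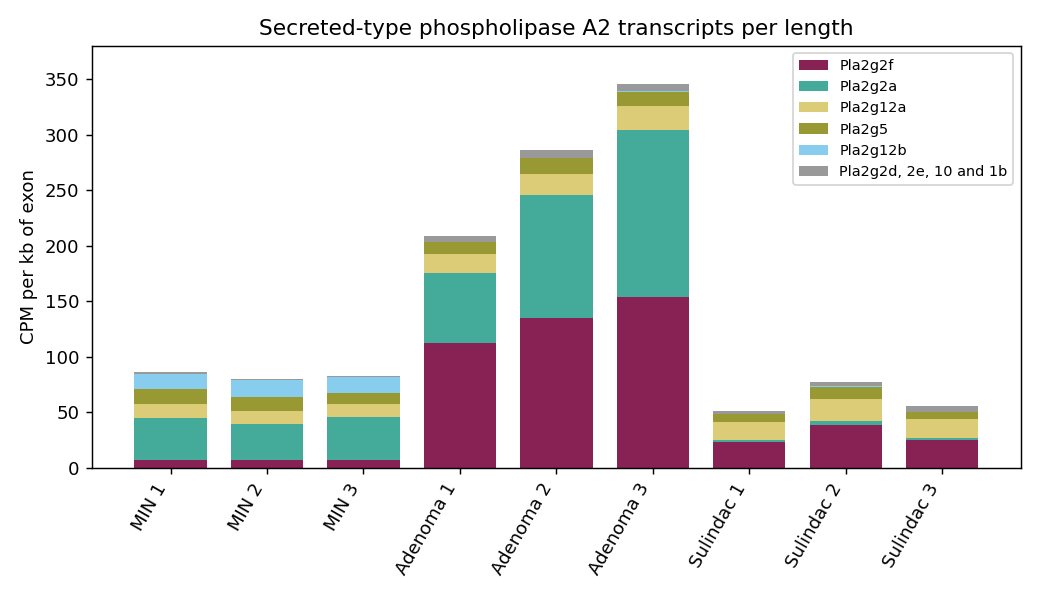
Transcript level of the 9 secreted-type phospholipase A2 genes per length (CPM per kb of exon) in each library, stacked by gene. Adenoma bars reach 208.3 to 345.8, mostly from Pla2g2f and Pla2g2a, and the sulindac-treated bars reach 51.2 to 76.9 with almost no Pla2g2a.

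Of 20 further genes of the superfamily, 16 were tested in adenoma over MIN; 3 rose (18.5% of all genes did), 2 fell (20.1% of all genes) and 11 were not called, with a median log2 fold change of 0.15. The calls with the largest change were Pla2g4b (-5.07), Pla2g2c (2.42), Pafah2 (-1.12), which degrades oxidized phospholipids, and the lysosomal Pla2g15 (1.07). Pla2g4b shares 64.2% of its 50-base stretches with the readthrough gene Gm28042, so its value is uncertain, and it moved to -8.75 without Adenoma replicate 1, the only adenoma library with a count. That value depends on the prior count of the fit. The value of Pla2g2c was 3.19 without MIN replicate 1, and its call was also lost with the replicate block (adjusted p = 0.0101) and in DESeq2 (adjusted p = 0.019). After sulindac 15 were tested against adenoma, of which Pnpla8 rose by 0.56 and Pnpla7 fell by 0.78 on the log2 scale (8.32% of all genes rose and 9.10% fell), with a list median of -0.07. Both calls were lost without any 1 treated library, that of Pnpla8 also without Adenoma replicate 2 (adjusted p up to 0.0178), and that of Pnpla7 also without Adenoma replicate 1 (adjusted p up to 0.0332). Library size alone also lost the Pnpla8 call (adjusted p = 0.0159), and the replicate block that of Pnpla7 (adjusted p = 0.0132). Compared with MIN, 4 of 15 were higher (23.0% of all genes) and 3 lower (26.8% of all genes) in the treated libraries.

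Among 8 receptors and regulators of phospholipases, 7 were tested in each comparison. The annexins Anxa1, which was named lipocortin as an inhibitor of these enzymes, and Anxa5 rose in adenoma, by 2.82 and 1.73 on the log2 scale (18.5% of all genes rose). Anxa1 was at 74.1 CPM in MIN replicate 3 and at 13.5 and 14.5 CPM in the other MIN libraries. Its value was 4.09 without that library, and the call was lost without any other single library (adjusted p = 0.0105 to 0.0411) and without the low-count filter (adjusted p = 0.0557). The other 5 were not called, and the list median was 0.44. After sulindac Anxa4 fell by 0.82 compared with adenoma (9.10% of all genes fell; not called without any 1 treated library, adjusted p = 0.0102 to 0.0179), with a list median of 0.15, and the other 6 were not called. Sulindac-treated libraries had 4 of 7 genes higher than MIN (23.0% of all genes were). One of them, Anxa1, was not called without any 1 library other than MIN replicate 3 (adjusted p = 0.014 to 0.0318), without the low-count filter (adjusted p = 0.0572) or with RLE size factors (adjusted p = 0.0101). Another, Plaa, was higher by only 0.27 on the log2 scale, and its call was lost without any 1 library (adjusted p = 0.0125 to 0.0415). The Plaa call was also lost with RLE factors, library size alone or no filter (adjusted p = 0.0113 to 0.021). A minimum of 10 counts, 1 fit for all libraries and the replicate block lost it too (adjusted p = 0.0132 to 0.0158).

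Of 18 genes that turn arachidonic acid into eicosanoids, 14 were tested in adenoma over MIN; 4 rose (18.5% of all genes did) and 6 fell (20.1% of all genes), with a median log2 fold change of -0.71. The cyclooxygenase gene Ptgs1, at 10 to 21 counts per MIN library, reached 1253 to 1533 counts in those of adenoma, a rise of 6.69 ± 0.26 on the log2 scale (adjusted p = 2.36e-07), and Ptgds, a prostaglandin D synthase, rose by 4.16. The epoxide hydrolase gene Ephx2 had 826 to 2176 counts per MIN library and 0 to 2 per adenoma library. Ptgs2, the inducible cyclooxygenase, had 20 to 29 counts per MIN library and 0 in all adenoma libraries, which is at least 6.88-fold lower when 3 counts per library are taken as the floor. After sulindac 11 were tested against adenoma; 2 rose (8.32% of all genes did) and 1 fell (9.10% of all genes), with a median of 0.05. Ptgds fell by 1.97, Ephx2 rose to 11 to 20 counts, and Cyp4f13, a cytochrome of the fatty acid omega-hydroxylase family, rose by 0.62 on the log2 scale. The Ptgds call was lost without Adenoma replicate 2 or 3 or Sulindac replicate 1 or 3 (adjusted p up to 0.0233). Without the low-count filter it was lost too (adjusted p = 0.0104). That of Cyp4f13 was lost without Adenoma replicate 1 or 2 or Sulindac replicate 1 or 3 (adjusted p up to 0.0179). With 1 fit for all libraries the Cyp4f13 call was also lost (adjusted p = 0.0115). That of Ephx2, 4.06 on the log2 scale, was lost without replicate 1 or 2 of either group (adjusted p up to 0.0135) and moved to 4.91 without Adenoma replicate 3. Ptgs2 was at 0 in all treated libraries too. Compared with MIN, 4 of 14 were higher (23.0% of all genes) and 5 lower (26.8% of all genes).

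Of 20 genes of phospholipid remodelling and lysophospholipid signaling, 17 were tested in adenoma over MIN; 4 rose (18.5% of all genes did) and 7 fell (20.1% of all genes), with a median of -0.21. Enpp2, which encodes autotaxin, the enzyme that makes lysophosphatidic acid, rose from 1 or 2 counts to 39 to 60 counts, and the acyltransferase gene Mboat2 rose by 2.93 on the log2 scale. Lpcat3, an acyltransferase that puts polyunsaturated fatty acids back into lysophospholipids, fell by 1.33. Lpcat2 had 25 to 30 counts in MIN and 0 in every adenoma library, at least 7.76-fold lower. After sulindac 4 of 17 rose (8.32% of all genes did) and 1 fell (9.10% of all genes) compared with adenoma, with a median of 0.18. Lpcat3 rose by 1.31, the acyl-CoA synthetase gene Acsl3 by 0.92 and Mboat1 by 0.87, and Enpp2 fell by 1.83. The Mboat1 call was lost without Adenoma replicate 2 or 3 or Sulindac replicate 1 or 3 (adjusted p up to 0.0292), and that of Enpp2 without any 1 library other than Adenoma replicate 1 (adjusted p up to 0.0245). Library size alone (adjusted p = 0.0212) and 1 fit for all libraries (adjusted p = 0.0137) also lost the Mboat1 call. Compared with MIN, 6 of 17 were higher (23.0% of all genes) and 4 lower (26.8% of all genes).

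**Figure D5:**
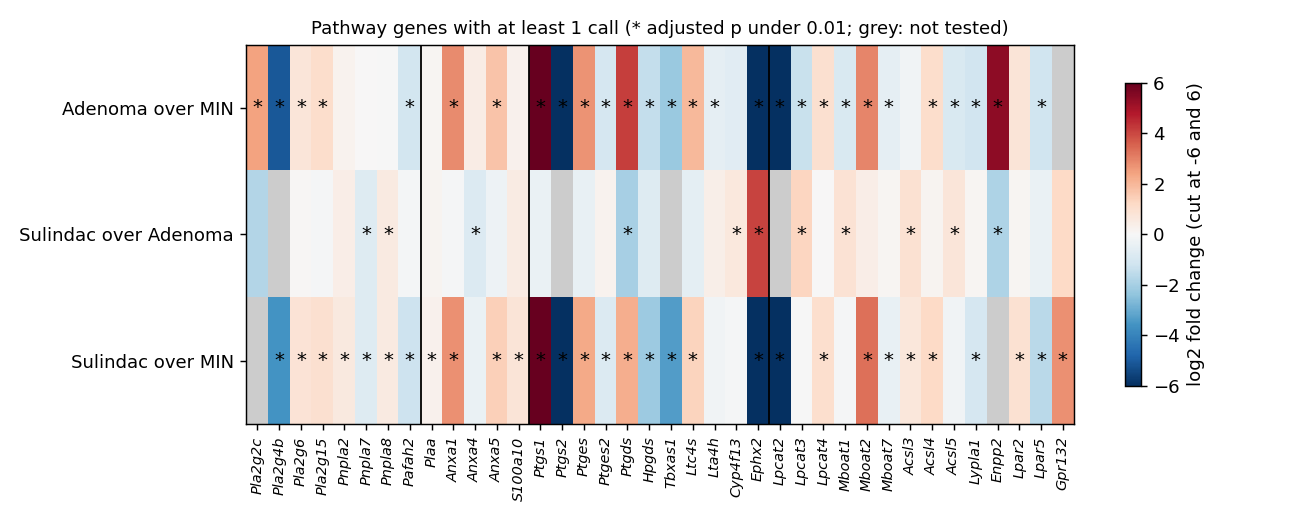
Log2 fold change of the 38 of 66 pathway genes called at least once, in the 3 comparisons; colors are cut at -6 and 6, asterisks mark an adjusted p under 0.01 in edgeR's quasi-likelihood test, grey cells were not tested and black lines divide the 4 lists. Values for Ptgs2 and Lpcat2, which had 0 counts in adenoma, depend on the prior count of the fit. Ptgs1 is at 6.69 in adenoma over MIN, and Lpcat3 is at -1.33 there and at 1.31 in sulindac over adenoma.

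The genes whose pattern over the 9 libraries was most like that of each phospholipase were found by the root mean square (RMS) difference of centred log2(CPM + 0.5) among 13857 genes. For Pla2g2f they were Rdh9 (0.24), Msrb3 (0.26) and D630003M21Rik (0.27), where Pla2g2f itself ranged over 4.53. Pla2g2a had no gene so close. Its nearest genes were Cyp2c68, Pnliprp2 and Cacna1a, at 0.89, 0.91 and 0.92, where its own range was 6.32. Those nearest to Pla2g4a were Fam189a2 (0.43) and the retinaldehyde dehydrogenase genes Aldh1a1 (0.47) and Aldh1a7 (0.47). Aldh1a1 was at 241.3, 81.8 and 591.6 CPM in MIN, adenoma and treated libraries. Nearest to Pla2g12b were Pdzd3, Agmat and Prss12, at RMS differences of 0.27 to 0.29. For Pla2g2d they were A730090H04Rik, St3gal2 and Rnf32 (0.20 to 0.21), for Pla2g12a Auh, Ccm2 and Pnkd (0.05 to 0.07), and for Pla2g10 Morc1, Rcc1 and Pdhx (0.06 to 0.08). Pla2g12a and Pla2g10 themselves ranged over only 0.83 and 1.41, so their small differences are not closer matches than those of the other genes. The levels of Pla2g10 are so low that the pseudocount shrinks its range. With a pseudocount of 2 in place of 0.5, all 3 genes remained among the nearest for Pla2g12a, 2 for Pla2g2a and Pla2g4a, 1 for Pla2g2f, Pla2g10 and Pla2g12b, and none for Pla2g2d.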

How the data were processed

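RNA-seq had been performed on 9 organoid cultures, 3 per group, described as biological replicates. The authors deposited raw counts per gene symbol without normalization. The submitters' processing notes name Bowtie2 2.2.4, RSEM and the mm9 build. The annotation and the use of strand are not given in the sources used here. MIN replicate 1 has 2 runs and their sum, which was used as 1 sample. 

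Counts were filtered (filterByExpr), normalized (TMM) and tested with edgeR 4.0.16 (glmQLFit, robust, and glmQLFTest) under R 4.3.3. Each fit held the libraries of its 2 groups alone, with Benjamini-Hochberg adjustment over all genes tested. SE is the log2 fold change over the square root of F. p-values measure the spread between these cultures. The fits were also run on simulated counts. The outcome is not given here, and no statement rests on it. CPM used TMM factors over all 9 libraries. Gene lengths, sequence sharing and gene order came from GENCODE M21, and promoters from RefSeq (GRCm38.p6), which is not the build of the counts. Deviations from the group means of MIN and adenoma libraries with the same number were weakly correlated (r of 0.125, 0.114 and 0.193 across genes). For libraries with different numbers r was -0.149 to 0.0703. The same-numbered values pass a rule of 0.1 for every pair. The sample titles give only the number, so a pairing is not established, and the main fits are unpaired. The alternatives tried were scaling by RLE factors or by library size alone, no filter or a minimum of 10 counts throughout, 1 fit for all libraries, a block for the replicate number, omission of each library in turn, DESeq2 1.42.0, and an FDR of 5%.

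The 10 genes and the lists were chosen with earlier results of these data known. All 10 are named. Of each of 4 pathway lists, at most 4 called genes with the largest change are named per comparison, and the 3 nearest genes by pattern for each phospholipase called.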

Additional observations from a re-analysis of the deposited data

How the results depend on the processing

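The direction of every phospholipase A2 gene called in a comparison was kept under all alternatives. One of these, the FDR of 5%, reads the main fit at a looser threshold. A gene called at 1% cannot change there, and its values are part of the totals that follow. In adenoma over MIN, 110 of 111 values kept their side of the threshold, in sulindac over adenoma 94 of 97 and in sulindac over MIN 104 of 110. The exceptions were Pla2g12a in adenoma over MIN without MIN replicate 2 (adjusted p = 0.0109), Pla2g2d and Pla2g5 in sulindac over adenoma, and Pla2g4a and Pla2g5 in sulindac over MIN. At an FDR of 5% the number of these genes lower in sulindac over adenoma was 4 (Pla2g2d and Pla2g5 in addition), where 2374 of all 12962 genes tested were lower. With at least 10 counts in every sample, 1 of these genes was lower in sulindac over MIN, since Pla2g10 and Pla2g12b were no longer tested. Pla2g5 in sulindac over MIN had an adjusted p of 0.00841 without Sulindac replicate 2. Leaving out 1 library moved Pla2g2a in adenoma over MIN between log2 fold changes of 1.27 and 1.85, and Pla2g10 in sulindac over MIN between -7.72 (without Sulindac replicate 2, when the treated libraries hold 0 counts and the value depends on the prior count) and -4.31. With the replicate block, that is, a paired fit, Pla2g4a in sulindac over MIN changed by 0.81 on the log2 scale (adjusted p = 0.00905), and no other call among the 10 genes changed. Sulindac-treated samples did not pass the pairing rule with the others: same-numbered correlations were 0.26, 0.213 and -0.0768 with adenoma and -0.0312, 0.404 and 0.258 with MIN. Across all genes, sulindac over adenoma was the comparison most open to the settings. Its 1078 higher and 1179 lower genes became 603 and 1983 by library size alone, which shifted the median of all genes from -0.01 to -0.18 and the share of calls that were higher from 47.8% to 23.3%. In adenoma over MIN the same scaling moved the median to 0.125. Sulindac over adenoma had 1778 higher genes with DESeq2, and 2034 higher and 2374 lower at an FDR of 5%. When 1 library was left out, it had 423 to 1403 higher and 386 to 1488 lower, lowest without Sulindac replicate 3. Depth limits Pla2g2e and Pla2g1b, Pla2g10 in adenoma and treated libraries, and Pla2g12b in treated libraries, all of which lay near the floor. The cause of these differences was not tested.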
